A study of Caenorhabditis elegans with 91 samples.

Results

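Neurons and gonads of the same rde-4 mutant were set side by side by their mRNA: 4 libraries of neurons and 3 of gonads, 7 of the 27 mRNA libraries and of the 91 libraries in the series. The members were taken by their titles and labels alone, with no value of any gene involved. All 7 came from one-day adult Caenorhabditis elegans kept at 20 °C on OP-50 bacteria and homozygous for rde-4(ne299), a loss-of-function allele of the gene for RDE-4, a double-stranded RNA-binding partner of Dicer in the making of small interfering RNAs. The neurons came from strain BFF 31, which also carries otIs356[rab-3p(prom1)::2xNLS::TagRFP], a nuclear red fluorescent reporter driven by a neuronal rab-3 promoter. The gonads came from strain BFF 12, which carries rde-4(ne299) without the reporter. For a second look at the same tissue contrast, the text draws on 4 neuron libraries (BFF 32) and 3 gonad libraries (BFF 16) of animals called pigSi3, in which rde-4(ne299) is joined by pigSi3. That transgene holds cb-unc-119(+) and an rde-4:SL2:yfp unit driven in neurons by Psng-1, the promoter of sng-1, and those neurons carry otIs356 as well. Ranges over other libraries add neurons of wild-type animals with otIs356 (4 libraries, BFF 30) and, with 3 libraries each, gonads of 3 more groups: rde-4 (-) animals of the F3 generation from heterozygous BFF16 parents, sid-1(qt-9) with rde-4(ne299) (BFF 13), and the same pair of alleles with Psng-1::rde-4 (BFF 33).

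RNA was taken up in TRIZOL and libraries were made with a Nextera XT kit. The sources used here do not say how the neurons were isolated or whether replicates are separate cultures. The p-values thus rest on the variation among the libraries at hand, part of which may be technical. Tissue goes together with strain, reporter and the way each preparation was made, and these cannot be told apart here.

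Neurons and the germ line stand far apart among the tissues of the worm. Neurons package transmitters and peptides into vesicles, carry channels, receptors and ciliated endings, and are postmitotic, whereas the adult hermaphrodite gonad is mostly germ cells that pass through mitosis, meiosis and oocyte growth inside a thin somatic sheath. Germ cells hold their mRNAs under the control of RNA-binding proteins and perinuclear P granules, and they keep the X chromosome largely silent. The series asks how small RNAs made in neurons act on later generations, and the tissue contrast shows which transcripts each preparation holds.

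The targeted gene was listed in every library. rde-4 had 4.12, 2.74, 2.41 and 4.67 CPM in neurons, against 27.6, 14.1 and 18.3 CPM in gonads (log2 difference -2.52, SE 0.41, adjusted p = 0.000132). All neuron libraries were below all gonad libraries. Since ne299 is in both tissues and counts do not tell a mutant transcript from an intact one, these values describe the transcript and not the protein. Levels here and below are in CPM, gene counts set to a common library size, here scaled by the trimmed mean of M-values (TMM), which sets aside the genes that differ most, so that values do not sum to the same total in every library. A difference is log2 of neurons over gonads from edgeR's quasi-likelihood test.

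The defining markers matched the labels. All 10 neuronal markers (rab-3, rgef-1, unc-119, ric-4, snb-1, unc-64, sng-1, snt-1, egl-3 and egl-21) lay higher in every neuron library than in any gonad library, and all 10 germ line markers (glh-1, pgl-1, pgl-3, gld-1, him-3, htp-3, syp-1, rme-2, oma-1 and cgh-1) lay lower. The neuronal markers summed to 26955, 36962, 26599 and 15593 CPM in neurons, against 100.7, 84.7 and 74.9 CPM in gonads. The germ line markers summed to 312, 653, 221 and 180.5 CPM in neurons, against 9963, 8989 and 7850.1 CPM in gonads. Within gonads the sum of the neuronal list is carried mostly by unc-64 and snb-1, membrane-fusion proteins that are not confined to neurons. Within neurons the sum of the germ line list is carried mostly by glh-1, which had 111, 477, 74.3 and 31.4 CPM in neurons, against 1368, 1233 and 1190.0 CPM in gonads, and cgh-1, which had 114, 103, 97.1 and 79.7 CPM in neurons, against 2574, 1937 and 1882 CPM in gonads. glh-1 encodes a P granule helicase and cgh-1 an RNA helicase of storage bodies.

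**Figure D1:**
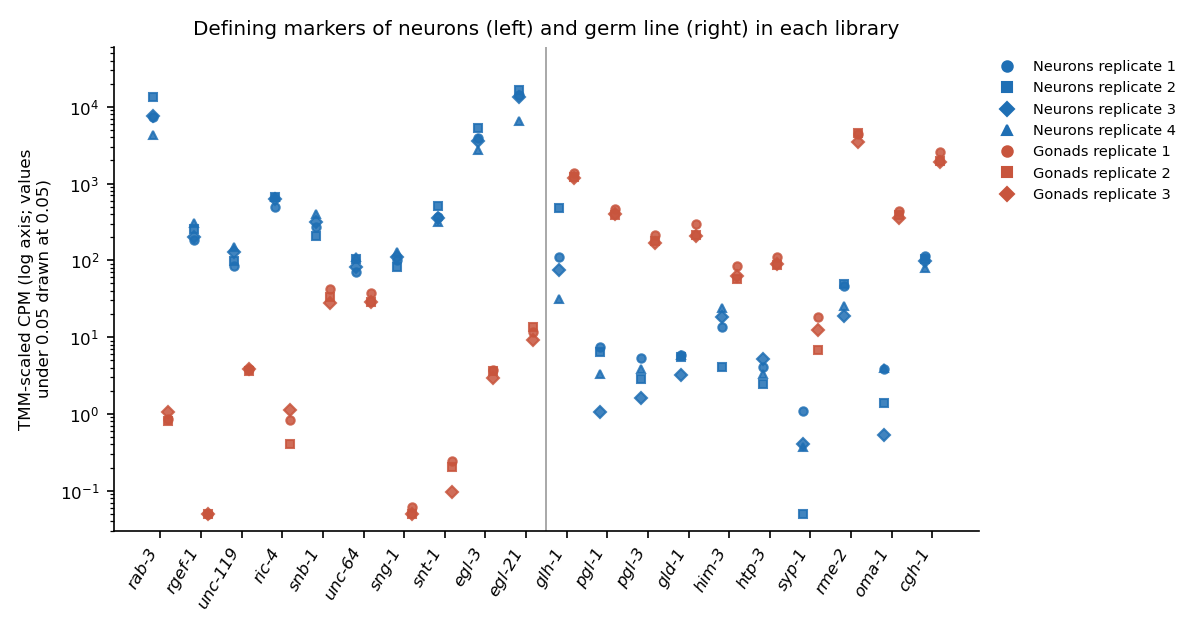
Level of each defining marker in each library, in TMM-scaled CPM on a log axis, with 4 neuron libraries in blue at the left of each gene and 3 gonad libraries in red at its right. The 10 neuronal markers are higher in every neuron library and the 10 germ line markers in every gonad library. The narrowest neuronal gap is at unc-64 and the lowest gonad value of rgef-1 is 0.

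The libraries held 9432353 to 15765852 gene counts in neurons and 5928512 to 36765116 in gonads, so that 3 counts, taken as the floor of detection, were worth 0.190 to 0.318 CPM in neurons and 0.0816 to 0.506 CPM in gonads before TMM scaling. Reads that the counting assigned to no gene made up 47.6 to 48.7% of all reads in neurons and 51.6 to 52.1% in gonads. The strand setting is not known, so these reads need not all lie outside annotated genes. Reads not aligned made up 5.13 to 9.21% in neurons and 1.56 to 1.70% in gonads. Between any pair of neuron libraries Pearson's r over genes was 0.896 to 0.976, between gonad libraries 0.981 to 0.993, and between a neuron and a gonad library 0.260 to 0.314. Neurons replicate 2 was the least like the other neuron libraries: in a principal component analysis of the 7 libraries it stood at 70.3 on the second component, which held 4.60% of the variance, while the first, with 91.9%, separated the tissues. Results that rest on this library are given with that fact beside them.

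Most of the transcriptome differed between the tissues. Of 12718 genes tested, 9309 (73.2%) passed an adjusted p of 0.05, of which 4955 (39%) rose and 4354 (34.2%) fell in neurons. A log2 difference of at least 2 in size was seen in 7021 (55.2%), with 4171 (32.8%) higher and 2850 (22.4%) lower. The levels did not overlap between the tissues for 9351 genes (73.5%), 4819 (37.9%) of them higher and 4532 (35.6%) lower in neurons. Of the genes tested, 276 had no count in any gonad library and 98 had none in any neuron library. The split depends on the scaling: with library totals in place of TMM, 39.5% of the called genes were higher in neurons, against 53.2% with TMM, since that scaling shifts the difference of every gene by a median of -1.06 (log2). Differences are given as fitted and are to be read against a median over all tested genes of 0.10 under TMM.

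Most genes of the neuronal lists that could be tested were higher in neurons. Over the 15 lists of neuronal genes combined, 2279 members were listed, 1721 had a count and 687 passed the filter on low counts, which a gene can pass through neurons alone. Of those tested, 623 rose, 16 fell and 48 did not pass, with a median log2 difference of 7.43, or 6.73 with genes uncounted in gonads set to the floor of 3 counts. The machinery of vesicle release came first among these by role. Of the 35 pan-neuronal and synaptic vesicle genes, 34 rose and 0 fell, with a median of 4.92. rab-3, the small GTPase of synaptic vesicles whose promoter drives the reporter, had 7442, 13386, 7612 and 4294 CPM in neurons, against 0.851, 0.805 and 1.04 CPM in gonads (log2 difference 13.15, SE 0.73, adjusted p = 4.04e-08). sng-1, which encodes the vesicle protein synaptogyrin and whose promoter drives the pigSi3 transgene, had 99.5, 81.8, 111 and 129 CPM in neurons, against 0.0608, 0 and 0 CPM in gonads. With 3 gonad counts in all, its ratio was 2451 times (95% counting interval 838 to 11892), an interval that covers counting error only, as do those below. rgef-1, a Ras guanine nucleotide exchange factor used as a pan-neuronal marker, had 186, 258, 201 and 307 CPM in neurons, against 0.0405, 0 and 0 CPM in gonads, a ratio of 8209 times (95% counting interval 2272 to 67797) on 2 gonad counts. snt-1, the calcium sensor synaptotagmin, had 369.8, 507, 350.4 and 314 CPM in neurons, against 0.243, 0.201 and 0.0948 CPM in gonads (log2 difference 10.84, SE 0.53, adjusted p = 3.67e-08). For all 4, every neuron library stood apart from every gonad library by orders of magnitude. unc-64, the membrane fusion protein syntaxin, differed far less, at 71.3, 104, 82.1 and 112 CPM in neurons, against 37.2, 28.99 and 28.7 CPM in gonads (log2 difference 1.54, SE 0.29, adjusted p = 0.000471), and its call was lost under library totals, at a log2 difference of 0.43. In these tissue preparations fewer cells of a type and less RNA per cell cannot be told apart.

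Dense core vesicles and the enzymes that process neuropeptides were among the genes furthest apart. Of 14 such genes, 13 rose and none fell, with a median of 7.09. egl-3, the proprotein convertase that cuts peptide precursors, had 3909, 5309, 3631 and 2733 CPM in neurons, against 3.69, 3.62 and 2.94 CPM in gonads (log2 difference 10.15, SE 0.55, adjusted p = 3.67e-08). egl-21, the carboxypeptidase that trims the cut ends, had 14018, 16350.1, 13533 and 6491 CPM in neurons, against 11.8, 13.5 and 9.29 CPM in gonads (log2 difference 10.09). pghm-1 and pgal-1, the paired enzymes that amidate peptide ends, had log2 differences of 10.39 and 10.43, and sbt-1, the chaperone 7B2 of the convertase, 10.68. The list as a whole took 6.74, 4.67, 8.11 and 6.31% of all gene counts in neurons, against 0.0189, 0.0198 and 0.0190% in gonads.

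Their substrates followed. All 30 tested flp genes, which encode FMRFamide-like peptides, rose, with a median of 10.45 (10.33 at the floor), and 66 of 69 nlp genes rose and none fell, with a median of 10.11 (9.58 at the floor). flp-1 had 2264, 2966, 2642 and 3119 CPM in neurons, against 5.01, 3.72 and 2.46 CPM in gonads (log2 difference 9.5, SE 0.53, adjusted p = 4.04e-08). flp-26 had 96.5, 63.3, 133 and 275 CPM in neurons and no count in any gonad library, at least 658-fold higher against a floor of 3 counts per library. nlp-15 had 2258, 3006, 2754 and 3876 CPM in neurons, against 1.07, 0.805 and 1.14 CPM in gonads (log2 difference 11.50, SE 0.56, adjusted p = 3.67e-08), and nlp-11 differed by 11.70. Of 21 insulin-like peptide genes, 17 rose and 1 fell, with a median of 6.08. ins-1 had 145, 140.2, 224 and 353 CPM in neurons, against 0.0608, 0 and 0 CPM in gonads, a ratio of 4947 times (95% counting interval 1692 to 23996), and ins-17 differed by 9.01 (SE 0.58). The gene that fell was ins-5, with 1.76, 0, 1.47 and 1.48 CPM in neurons, against 4.80, 6.14 and 4.64 CPM in gonads (log2 difference -2.11, SE 0.77, adjusted p = 0.0256). Its levels did not overlap, but it was no longer called when any 1 of gonads replicates 1, 2 and 3 or neurons replicates 1, 3 and 4 was left out, with values of -2.28 to -2.0.

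Transmitter genes of every main class were found, though not equally far from gonads. Of 19 tested genes of transmitter synthesis and transport, 16 rose and none fell, with a median of 6.78 (6.42 at the floor). The vesicular GABA transporter unc-47 had 179, 194, 208 and 101 CPM in neurons, against 0.0203, 0 and 0 CPM in gonads, a ratio of 11847 times (95% counting interval 2125 to 468009) on 1 gonad count. Its partner unc-46, which sorts that transporter to vesicles, had 509.7, 472, 484 and 320.2 CPM in neurons, against 0.264, 0.302 and 0.0948 CPM in gonads (log2 difference 10.85, SE 0.54, adjusted p = 3.67e-08). cho-1, the choline transporter that feeds acetylcholine synthesis, differed by 9.90, and cat-2, the tyrosine hydroxylase of dopamine neurons, by 9.38. The remaining genes of this paragraph were picked once their values were known. unc-25, the GABA-making decarboxylase, had 15852, 20392, 14514 and 3341 CPM in neurons, against 4.52, 4.33 and 2.94 CPM in gonads (log2 difference 11.74, SE 0.87, adjusted p = 2.11e-07), tph-1, the serotonin-making hydroxylase, 19.8, 13.7, 13.1 and 11.8 CPM in neurons, against 0.182, 0.101 and 0 CPM in gonads (log2 difference 6.78, SE 0.65, adjusted p = 1.61e-06), and eat-4, the vesicular glutamate transporter, 49.6, 84.4, 55.6 and 60.9 CPM in neurons, against 10.7, 11.6 and 8.34 CPM in gonads (log2 difference 2.62, SE 0.32, adjusted p = 1.22e-05). cha-1, choline acetyltransferase, differed by 8.51, while unc-17, the vesicular acetylcholine transporter that shares its locus, was listed at 0 in all 7 libraries. The genes of tyramine and octopamine synthesis stood out the other way. tdc-1 had 209.9, 342, 141 and 76.8 CPM in neurons, against 330.2, 288 and 258 CPM in gonads, and tbh-1 had 76.9, 162, 96.3 and 55.4 CPM in neurons, against 201, 139.6 and 109 CPM in gonads. Their tissues overlapped and neither passed (adjusted p = 0.23 and 0.163). Without neurons replicate 2 each passed as lower, at -0.91 for tdc-1 and -0.84 for tbh-1. Both genes are known to be active in gonadal sheath cells as well as in neurons.

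On the receiving side, all 103 tested receptor genes for transmitters and peptides of the G protein-coupled class rose, with a median of 7.75 (7.61 at the floor). dop-1, a dopamine receptor, had 125.8, 136, 154 and 157 CPM in neurons, against 0.101, 0.101 and 0.0948 CPM in gonads (log2 difference 10.37, SE 0.45, adjusted p = 3.67e-08). gar-2, a muscarinic acetylcholine receptor, differed by 10.35, and dop-5 had 204, 237, 276 and 137 CPM in neurons with no gonad count, at least 989.5-fold higher. Of 85 ligand-gated channel genes, 76 rose and 2 fell, with a median of 6.50. The glutamate-gated chloride channel glc-3, the GABA-gated cation channel exp-1 and the serotonin-gated channel mod-1 differed by 9.66, 8.96 and 8.37. The genes that fell were low in both tissues: lgc-34 had 0.196, 0, 0.134 and 0.123 CPM in neurons, against 1.36, 1.81 and 1.14 CPM in gonads (log2 difference -3.50), and glc-1 had 0.882, 0, 0.134 and 1.23 CPM in neurons, against 3.87, 4.33 and 1.99 CPM in gonads (log2 difference -2.54), a call lost at -2.48 without gonads replicate 1, -2.37 without gonads replicate 2 and -2.08 without neurons replicate 3. All 21 voltage-gated and leak channel genes rose, with a median of 7.46. Among them slo-1, a calcium-activated potassium channel, had 78.2, 124, 84.9 and 86.5 CPM in neurons, against 0.507, 0.503 and 0.853 CPM in gonads (log2 difference 7.27, SE 0.42, adjusted p = 4.61e-08), and the calcium channel subunit unc-36 differed by 7.38.

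Sensory genes rose with somewhat more exceptions. Of 35 genes of ciliated endings, 32 rose and 1 fell, with a median of 5.14. daf-10, a subunit of the intraflagellar transport complex, had 2229, 2767, 2601 and 2945 CPM in neurons, against 4.89, 4.43 and 3.41 CPM in gonads (log2 difference 9.27, SE 0.48, adjusted p = 3.67e-08). dyf-3, also needed for cilia, was the one that fell, with 44.5, 13.8, 58.7 and 20.1 CPM in neurons, against 92.4, 109 and 72.8 CPM in gonads (log2 difference -1.42, SE 0.44, adjusted p = 0.0124), and without neurons replicate 4 it no longer passed, at -1.12. Of 35 sensory signalling genes, 24 rose and 2 fell. odr-2, a membrane-linked signalling protein of olfactory circuits, differed by 10.25, while odr-4 and odr-8, which help chemoreceptors reach the cilium, fell by 1.57 and 2.59 on the log2 scale. odr-8 had 31.6, 12.5, 27.5 and 21.9 CPM in neurons, against 169.7, 129 and 124 CPM in gonads. Chemoreceptor genes were mostly too low to test: 143 of 1631 passed the filter on low counts, a filter that a gene can pass through 1 tissue alone, and of these 7 fell, 14 did not pass and the rest rose. Among the 7, srx-96 had 6.76, 8.36, 7.23 and 10.7 CPM in neurons, against 37.9, 30.1 and 27.1 CPM in gonads (log2 difference -1.94, SE 0.31, adjusted p = 0.000133).

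Genes that mark single neuron classes could be followed. Of 14 touch receptor genes 13 rose, with a median of 9.70. mec-7 and mec-12, the tubulins of the touch neurons' thick microtubules, had 7956, 13177, 6524 and 1530.5 CPM in neurons, against 8.13, 13.6 and 10.8 CPM in gonads, and 19866, 35728, 19106 and 4131 CPM in neurons, against 13.1, 15.9 and 14.1 CPM in gonads. mec-17, the acetyltransferase that modifies them, differed by 9.52, and mec-3, the homeodomain factor of these neurons, by 10.76. The 1 that fell, mec-15, encodes an F-box protein and had 32.3, 33.0, 20.5 and 26.9 CPM in neurons, against 104, 67.7 and 72.1 CPM in gonads (log2 difference -1.53, SE 0.29, adjusted p = 0.000491). Of 31 neuronal transcription factor genes 29 rose and none fell, with a median of 6.74. ast-1, a factor of dopamine neurons, had 1343, 1574, 1931 and 664 CPM in neurons, against 1.24, 1.11 and 1.33 CPM in gonads (log2 difference 10.12, SE 0.60, adjusted p = 4.85e-08), unc-30, which directs GABA neuron identity, differed by 9.90, unc-4, a factor of cholinergic motor neurons, by 11.94, and zag-1 by 10.30. Of 34 axon guidance and adhesion genes 29 rose and 2 fell. madd-4, a secreted organiser of synapses, and nrx-1, neurexin, differed by 11.59 and 9.53, while the immunoglobulin protein gene rig-4 had 14.4, 18.4, 10.2 and 7.38 CPM in neurons, against 103, 77.4 and 102 CPM in gonads (log2 difference -2.91, SE 0.34, adjusted p = 9.77e-06) and unc-71 differed by -1.58.

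**Figure D2:**
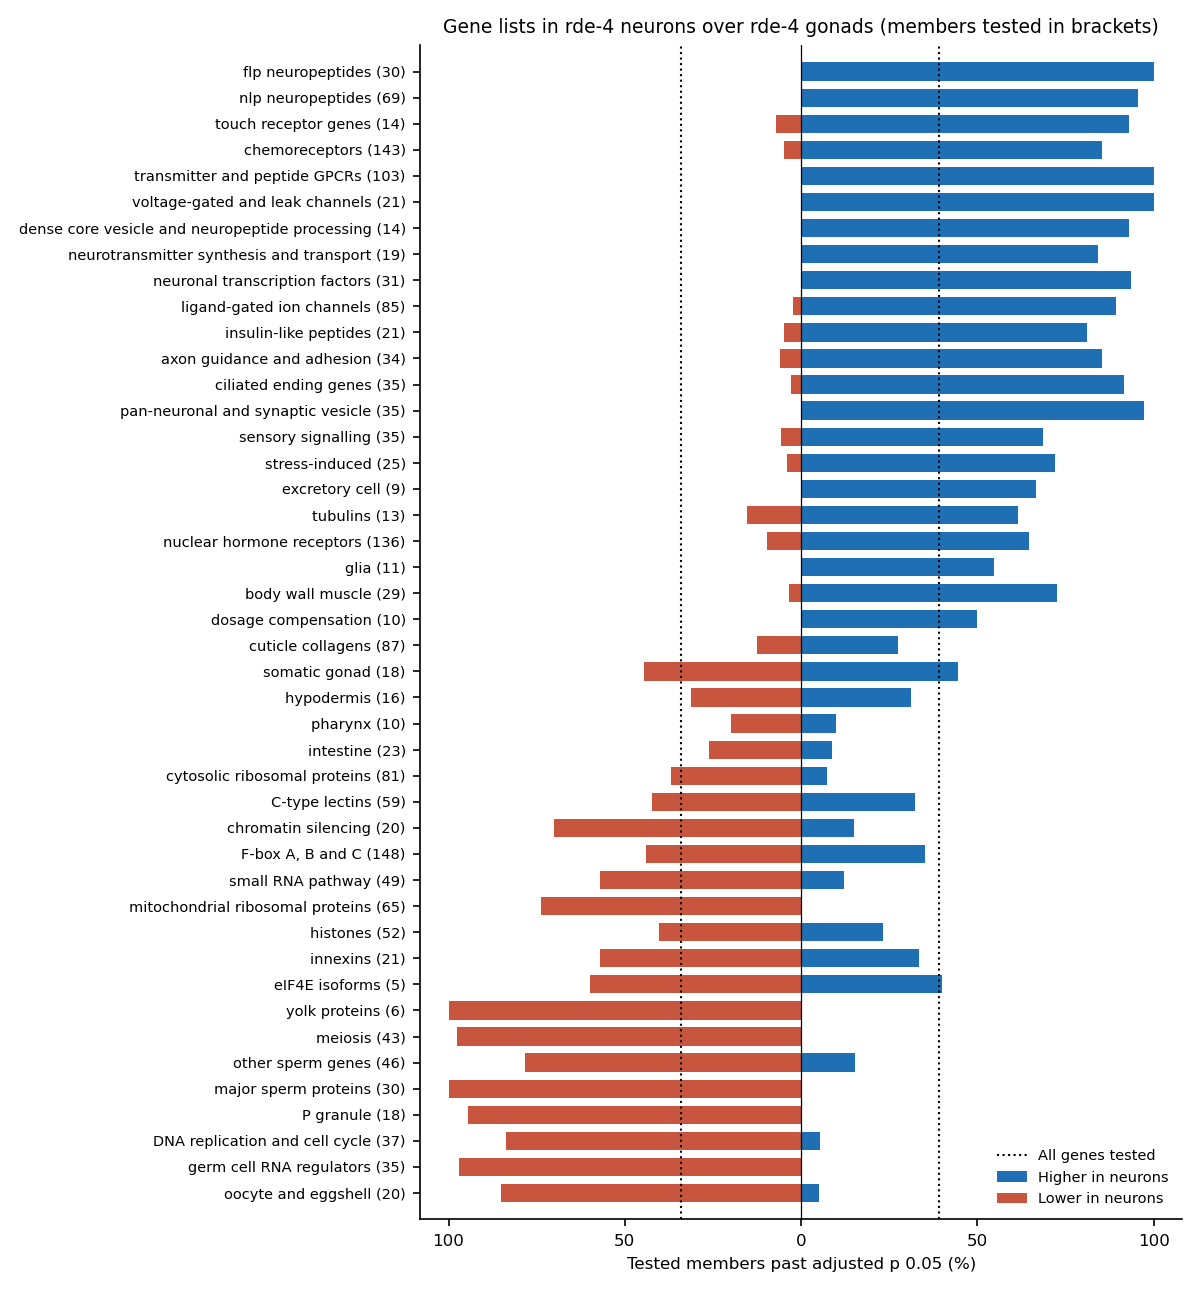
Share of the tested members of each gene list that passed an adjusted p of 0.05, drawn to the right where higher and to the left where lower in neurons, with the lists in order of their median log2 difference and the number tested in brackets. Dotted lines mark the shares over all 12718 genes tested, 39% higher and 34.2% lower. The lists of neuronal genes fill the top and those of germ cells the bottom.

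The 15 genes furthest above gonads with at least 50 CPM in neurons mixed neuronal receptors with stress-induced genes. C12D5.5, which current annotation names nssp-54, had 1151, 322, 1552 and 1933 CPM in neurons, against 0.0203, 0 and 0 CPM in gonads, a ratio of 87312 times (95% counting interval 15669.9 to 3448710.0) on 1 gonad count. The globin gene glb-22 had 264, 318, 388 and 292 CPM in neurons, against 0.0203, 0 and 0 CPM in gonads, a ratio of 21688 times (95% counting interval 3892 to 856698). Next to dop-5 and flp-26 stood the chemoreceptors sre-14, at least 572-fold higher, and str-162, at least 498-fold higher, both without a gonad count. K09F6.10 differed by 13.61, and C18A3.18, a non-coding RNA in the RefSeq annotation, was at least 536-fold higher. The TRP channel gene ocr-3 had 116, 1139, 61.5 and 23.5 CPM in neurons, against 0, 0 and 0.0948 CPM in gonads, with neurons replicate 2 far above the rest. The other 6 were F44E5.4, F44E5.5, hsp-70, uggt-2, hsp-16.2 and hsp-16.41, taken up with the stress genes.

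Most germ line genes that could be tested were lower in neurons. Over the 10 lists of gonad, germ line and small RNA genes combined, 351 members were listed and 316 passed the filter, which a gene can pass through gonads alone. Of these, 257 fell in neurons, 27 rose and 32 did not pass, with a median log2 difference of -4.41. P granule genes fell in 17 of 18 cases, with a median of -4.82. pgl-1 and pgl-3, scaffold proteins of P granules, had 7.35, 6.44, 1.07 and 3.32 CPM in neurons, against 462, 389.7 and 397 CPM in gonads (log2 difference -6.50), and 5.39, 2.88, 1.61 and 3.81 CPM in neurons, against 217, 177 and 168 CPM in gonads (log2 difference -5.76). deps-1, which promotes their assembly, differed by -5.72. glh-1 passed with a smaller difference (log2 difference -2.86, SE 0.72, adjusted p = 0.00331), its highest neuron value being that of replicate 2. RNA regulators of germ cells fell in 34 of 35 cases, with a median of -5.54. gld-1, a translational repressor that drives entry into meiosis, had 5.78, 5.48, 3.21 and 5.90 CPM in neurons, against 296, 215 and 210.3 CPM in gonads (log2 difference -5.56, SE 0.35, adjusted p = 6.76e-08), nos-2, a Nanos-family protein of germ cell precursors, differed by -6.12, and mex-5, puf-6 and spn-4, RNA-binding proteins of oocytes and embryos, by -5.86, -5.77 and -5.43. oma-1, needed for oocyte maturation, had 3.82, 1.37, 0.536 and 3.94 CPM in neurons, against 444, 387 and 351 CPM in gonads.

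Meiotic genes fell in 42 of 43 cases, with a median of -4.25. him-14, a MutS homologue needed for crossovers, had 8.92, 12.2, 6.96 and 7.38 CPM in neurons, against 613, 644 and 535 CPM in gonads (log2 difference -6.07, SE 0.36, adjusted p = 5e-08), and htp-3, a protein of chromosome axes, differed by -4.67. Of 20 oocyte and eggshell genes 17 fell and 1 rose, with a median of -5.55. rme-2, the receptor that takes yolk into oocytes, had 45.9, 49.7, 18.6 and 25.1 CPM in neurons, against 4389, 4498 and 3486 CPM in gonads (log2 difference -6.89, SE 0.49, adjusted p = 1.28e-07). cpg-1 and cpg-2, chondroitin proteoglycans of the eggshell, chs-1, its chitin synthase, and egg-2, a sperm-binding oocyte protein, differed by -5.47, -5.51, -6.51 and -5.79. The 1 that rose, the kinase gene mbk-2, overlapped between tissues (log2 difference 1.03, SE 0.43, adjusted p = 0.0452), was not called without any 1 of the gonad libraries, and turned to -0.23 under library totals. DNA replication and cell cycle genes fell in 31 of 37 cases, with a median of -5.11: mcm-7, part of the replicative helicase, had 13.2, 7.81, 7.90 and 8.49 CPM in neurons, against 444, 399 and 373 CPM in gonads, and plk-1 and cyb-1, a mitotic kinase and a cyclin, differed by -5.82 and -4.68. A kinetochore gene of this list went the other way, ndc-80, with 1008, 839, 1238 and 1410.2 CPM in neurons, against 33.6, 10.8 and 30.9 CPM in gonads (log2 difference 5.48, SE 0.52, adjusted p = 1.35e-06). The second that rose was cki-1, a cyclin kinase inhibitor, with 2.84, 0.685, 6.83 and 2.58 CPM in neurons, against 0.750, 0.604 and 1.14 CPM in gonads (log2 difference 1.96, SE 0.78, adjusted p = 0.0384); it overlapped between tissues and was not called without gonads replicate 1, 2 or 3 or neurons replicate 1 or 3 (1.45 to 2.18).

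Sperm are made before oocytes in a hermaphrodite, and sperm transcripts were low but present. All 30 tested major sperm protein genes, a family of near-identical copies whose reads may be split among members, fell, with a median of -4.75. The family summed to 29.5, 16.2, 35.6 and 60.9 CPM in neurons, against 1242, 275 and 1002 CPM in gonads. Gonads replicate 2 held much less than the other gonad libraries and still stood above every neuron library. Of 46 other sperm genes 36 fell and 7 rose. spe-44, a transcription factor of sperm development, had 0.784, 0, 0 and 0.123 CPM in neurons, against 35.5, 31.0 and 25.3 CPM in gonads (log2 difference -6.84, SE 0.73, adjusted p = 4.39e-06), and gsp-3, a sperm phosphatase gene, had 0, 0, 0 and 0.123 CPM in neurons, against 12.6, 1.71 and 10.04 CPM in gonads, with 1 neuron count in all. Among those that rose were spe-15, an unconventional myosin, with 70.9, 85.9, 82.9 and 58.4 CPM in neurons, against 11.01, 9.06 and 12.03 CPM in gonads, and R74.10, which current annotation names ssp-28, with 108.4, 145, 168 and 151 CPM in neurons, against 0.223, 0.302 and 0.190 CPM in gonads (log2 difference 9.22, SE 0.45, adjusted p = 3.67e-08).

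Genes of small RNA pathways, the subject of the series, divided by tissue. Of 49 tested, 28 fell and 6 rose in neurons, with a median of -1.49. hrde-1, the nuclear Argonaute that carries silencing through germ line generations, had 9.12, 7.26, 7.37 and 7.87 CPM in neurons, against 665, 479 and 509.7 CPM in gonads (log2 difference -6.12, SE 0.34, adjusted p = 4.04e-08). The Argonautes wago-1, wago-4 and prg-1, the last of which binds piRNAs, differed by -5.31, -5.90 and -5.73. sid-1, the channel that imports double-stranded RNA into cells, had 5.69, 0.137, 8.97 and 2.34 CPM in neurons, against 60.6, 38.4 and 43.6 CPM in gonads (log2 difference -3.46, SE 0.71, adjusted p = 0.000828), and neurons replicate 2 was nearly without it. On the other side, the microRNA Argonaute alg-1 and its partner ain-1 had 48.1, 53.4, 47.003 and 41.3 CPM in neurons, against 12.1, 11.6 and 10.04 CPM in gonads, and 91.5, 85.4, 96.6 and 82.5 CPM in neurons, against 15.6, 15.4 and 12.03 CPM in gonads, and eri-6, a helicase gene of the endogenous RNAi pathway, differed by 4.82. No neuron library overlapped a gonad library for any of these 8 genes. Of 20 chromatin silencing genes 14 fell and 3 rose. set-9, mes-4 and xnd-1, chromatin factors of the germ line, differed by -4.98, -3.48 and -5.36. The 3 that rose were hpl-1, met-1 and mes-3, at 1.99, 2.20 and 1.36, and none of the 3 passed under library totals; met-1 and mes-3 also missed the threshold without gonads replicate 2, at 1.91 and 1.06.

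The 15 genes furthest below gonads with at least 50 CPM there were mostly without a textbook role. Y55F3AM.11 had 1.37, 0, 0 and 0.615 CPM in neurons, against 219, 170.1 and 134 CPM in gonads (log2 difference -8.30, SE 0.75, adjusted p = 1e-06), and F01G4.4 differed by -7.80. oma-1 was among them, as were sygl-1, a target of Notch signalling in germline stem cells, with 3.73, 0.411, 1.47 and 2.34 CPM in neurons, against 306, 288 and 232 CPM in gonads, and klp-18 and klp-10, a kinesin of the oocyte meiotic spindle and a related gene, at -7.50 and -7.54. The transporter gene mrp-4, at -7.18, was the only one of the 15 on the X chromosome. The other 8, C06A1.4, ugt-64, C27D9.1, Y69E1A.2, egg-6, Y4C6A.3, T11F8.2 and C14C11.2, spanned -7.71 to -6.92.

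Genes on the X chromosome stood apart from those on the autosomes. Chromosomes were taken from the RefSeq table of WBcel235, by gene name. Of 1842 tested X-linked genes 67.1% rose and 11.2% fell in neurons, with a median log2 difference of 2.98, against 34% and 38.4% of 10636 autosomal genes, with a median of -0.29. Chromosome V came next, with 44.4% higher, 30.4% lower and a median of 0.67, and chromosomes I to IV had medians of -0.58 to -0.32. Leaving out every gene of the neuronal lists, the median over the 1696 remaining X-linked genes was 2.57, against -0.46 over 10102 autosomal genes. Under library totals the X median was 1.89 and the autosomal one -1.40. Counted as a share of all gene counts, X-linked genes took 14.5, 10.9, 15.2 and 16.0% in neurons, against 4.10, 5.19 and 4.02% in gonads. Neurons replicate 2 was lowest among neurons, and with the stress-induced genes left out the neuron shares were 16.7, 16.3, 16.4 and 16.9%. The 8 neuron libraries of wild-type and pigSi3 animals lay at 16.0 to 20.2% and the 12 other gonad libraries at 4.02 to 5.89%. No test was made of chromosomes, whose genes are not independent replicates.

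**Figure D3:**
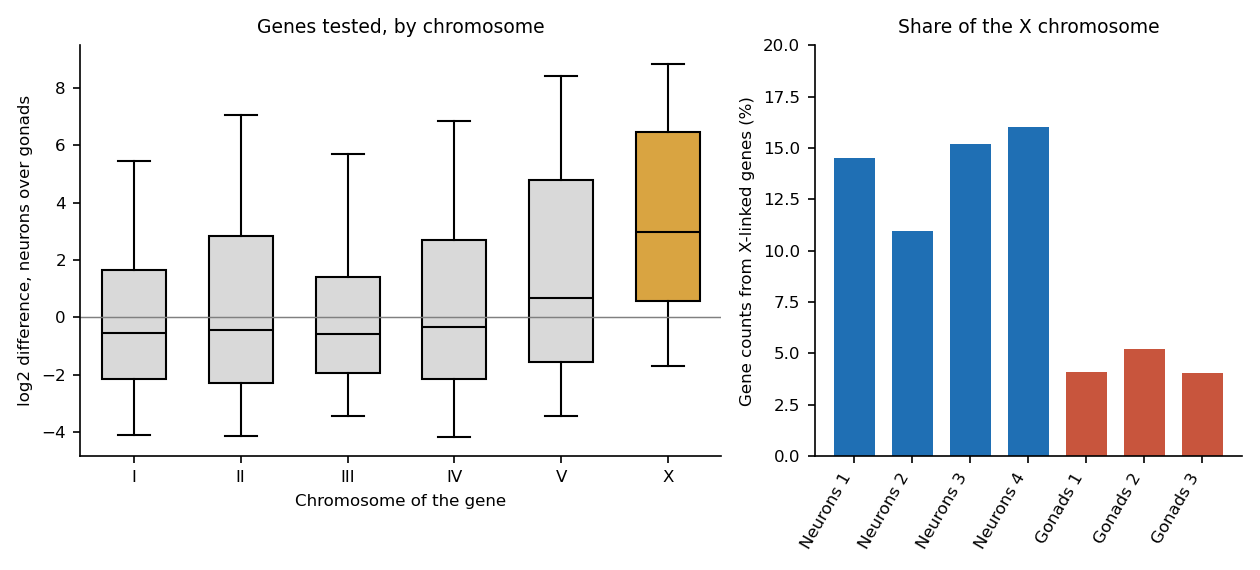
Left, log2 difference of neurons over gonads for the tested genes of each chromosome; boxes hold the middle of the genes with the median as a line, and whiskers reach the 10th and 90th percentiles. Right, percent of all gene counts from X-linked genes in each of the 4 neuron (blue) and 3 gonad (red) libraries. The X median is 2.98, and the X share is 10.9% or more in every neuron library and 5.19% or less in every gonad library.

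The dosage compensation complex, which lowers X expression in the body cells of hermaphrodites, was mixed. Of its 10 tested genes 5 rose (50%, against 39% of all genes) and none fell (against 34.2%), with a median of 0.87 that turned to -0.30 under library totals. mix-1, a condensin subunit, had 618, 856, 720.3 and 606 CPM in neurons, against 122.1, 61.9 and 114 CPM in gonads (log2 difference 2.81, SE 0.37, adjusted p = 2.45e-05), and dpy-27, sdc-2 and dpy-21 differed by 1.99, 2.47 and 1.5. dpy-21 was not called under library totals (0.21), without gonads replicate 2 (1.33) or without gonads replicate 3 (1.40).

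Within families of housekeeping genes, some members went opposite ways. Mitochondrial ribosomal protein genes fell in 48 of 65 cases and none rose, with a median of -1.55. mrps-22 had 13.1, 8.77, 8.97 and 8.98 CPM in neurons, against 70.2, 52.0 and 53.8 CPM in gonads. Of 81 cytosolic ribosomal protein genes 30 fell (37%, near the 34.2% of all genes), 6 rose (7.41%, against 39%) and 45 did not pass, with a median of -0.54. Under library totals 65 fell and 2 rose, and 16 fell without neurons replicate 1, 18 without neurons replicate 3 and 18 without gonads replicate 1. Paralogs stood opposed in 2 pairs. rpl-11.2 had 209.6, 153, 292 and 371 CPM in neurons, against 15.3, 20.1 and 14.2 CPM in gonads (log2 difference 3.96, SE 0.41, adjusted p = 3.05e-06), while rpl-11.1 had 46.2, 34.7, 36.2 and 56.2 CPM in neurons, against 472, 368 and 330.0 CPM in gonads (log2 difference -3.17, SE 0.32, adjusted p = 2.38e-06). Likewise rpl-25.1 differed by 5.05 and rpl-25.2 by -2.33. None of these 4 overlapped between tissues. Among the cap-binding eIF4E proteins, ife-1, ife-3 and ife-5 fell, at -2.88, -2.37 and -2.62. ife-2 and ife-4 rose, at 1.07 and 2.22, calls that both lapsed under library totals (0.05 and 1.26); ife-2 also lapsed without any 1 gonad library (0.94 to 1.20). Of 13 tubulin genes 8 rose and 2 fell: tba-9 and tbb-4, tubulins of ciliated neurons, differed by 7.94 and 6.13, and tbb-1 and tbg-1, a broadly used beta and the gamma tubulin, by -1.14 and -1.08. Gap junction genes also split, with 7 of 21 innexins higher (33.3%, against 39% of all genes) and 12 lower (57.1%, against 34.2%). unc-9 and inx-1 differed by 7.93 and 9.25, and inx-14 and inx-21, which link germ cells to the sheath, by -4.34 and -4.43.

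Histone genes, whose near-identical copies make single values uncertain, also split. Of 52 tested 21 fell (40.4%, against 34.2% of all genes) and 12 rose (23.1%, against 39%), with a median of -1.55. Yet the list summed to 6813, 7012, 11223 and 14190.5 CPM in neurons, against 4343, 4492 and 3619.8 CPM in gonads. his-35 had 219.9, 238, 267 and 339.5 CPM in neurons, against 6.79, 5.34 and 4.07 CPM in gonads (log2 difference 5.61, SE 0.39, adjusted p = 1.25e-07), and his-28 and his-50 differed by 5.65 and 5.57. hil-5, a linker histone gene, had 28.3, 17.7, 28.4 and 34.1 CPM in neurons, against 1287, 1418 and 1171 CPM in gonads (log2 difference -5.57, SE 0.37, adjusted p = 8.22e-08). Under TMM the summed level was thus higher in every neuron library than in any gonad library, but as a share of all gene counts it was 0.568, 0.325, 0.859 and 1.22% in neurons, against 0.583, 0.727 and 0.644% in gonads, so that neurons replicates 1 and 2 lay below every gonad library. Within neurons the sum was higher in replicates 3 and 4 than in 1 and 2. Between tissues the median member was lower in neurons, although the summed CPM under TMM was higher.

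Among larger gene families, nuclear hormone receptor genes rose in 88 of 136 cases (64.7%, against 39% of all genes) and fell in 13 (9.56%, against 34.2%), with a median of 2.36. C-type lectin genes rose in 19 of 59 cases (32.2%, against 39% of all genes) and fell in 25 (42.4%, against 34.2%), with a median of -0.77. Of the 59, 24 fell by at least 2 on the log2 scale, against 22.4% of all genes. Single members lay far apart. clec-78 had 1464, 1357, 2146 and 2511 CPM in neurons, against 1.07, 1.71 and 1.71 CPM in gonads (log2 difference 10.32, SE 0.56, adjusted p = 3.84e-08), and clec-87 and clec-88 differed by -6.15 and -5.68. clec-87 had 131, 72.1, 107 and 164 CPM in neurons, against 9249.6, 8970.0 and 7085 CPM in gonads. F-box genes rose in 52 of 148 cases (35.1%, against 39% of all genes) and fell in 65 (43.9%, against 34.2%), with a median of -1.45. All 65 fell by at least 2 on the log2 scale, a fall seen in 22.4% of all genes. Among those that rose, fbxa-24 differed by 9.16.

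Signs of tissues other than the labelled one were uneven. Over the 9 lists of other cell types, the somatic gonad aside, 65 of 191 tested members rose (34%) and 31 fell (16.2%), both below the shares over all genes, and under library totals 33 rose. Of these lists muscle had the highest share of tested members called higher, 72.4%. Of 29 body wall muscle genes 21 rose and 1 fell in neurons, with a median of 1.74, and under library totals 12 rose and 4 fell. The list summed to 23099, 36854, 21759.7 and 21599 CPM in neurons, against 1654, 2146 and 1612 CPM in gonads. unc-54, the major myosin heavy chain of body wall muscle, had 12400.1, 20611, 11953 and 17205 CPM in neurons, against 51.3, 97.3 and 94.0 CPM in gonads (log2 difference 7.59, SE 0.56, adjusted p = 1.78e-07), and took 1.03, 0.954, 0.914 and 1.48% of all counts in neurons. Several markers that define muscle did not pass with it. myo-3, the other body wall myosin, had 4.9995, 5.89, 5.76 and 5.66 CPM in neurons, against 3.18, 2.62 and 4.55 CPM in gonads (log2 difference 0.69, SE 0.44, adjusted p = 0.169), unc-15, paramyosin, had 86.5, 132, 33.2 and 43.2 CPM in neurons, against 82.2, 128 and 115 CPM in gonads (log2 difference -0.55, SE 0.44, adjusted p = 0.27), and hlh-1, the muscle-determining factor, was at 1.27, 0, 0 and 0.369 CPM in neurons, against 0.223, 0.805 and 0 CPM in gonads. lev-11, tropomyosin, had 275, 187, 268 and 142 CPM in neurons, against 88.0, 133 and 101 CPM in gonads (log2 difference 1.02, SE 0.34, adjusted p = 0.0162), a call lost without gonads replicate 1 (0.86) or 3 (0.93) and at -0.09 under library totals. Other members rose with unc-54: ttn-1, a giant muscle protein gene, had 963, 1606, 912 and 504 CPM in neurons, against 1.80, 3.22 and 3.79 CPM in gonads (log2 difference 8.43, SE 0.61, adjusted p = 1.62e-07), and act-4, an actin gene with close copies, and tni-1, a troponin gene, differed by 3.18 and 5.79. Transgenes of this species often end in the unc-54 3′ untranslated region. The sources used here do not give the end of otIs356, and its part in the unc-54 counts was not tested. In the 8 other neuron libraries, all of which carry otIs356 too, the muscle list took 1.63 to 2.82% of counts, and 1.66 to 1.93% in these 4.

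Yolk protein genes, made by the intestine, were lower in neurons. All 6 fell, with a median of -2.95 and sums of 337, 659.7, 298 and 248 CPM in neurons, against 2622, 4421 and 1981 CPM in gonads. vit-2 had 78.8, 113, 54.2 and 56.6 CPM in neurons, against 422, 671 and 351 CPM in gonads (log2 difference -2.67, SE 0.37, adjusted p = 4.11e-05) and vit-6 differed by -2.78; vit-3, vit-4 and vit-5 are close copies of one another. Of 23 other intestinal genes tested 2 rose (8.7%, against 39% of all genes) and 6 fell (26.1%, against 34.2%). Their sums were 284, 321, 293 and 171 CPM in neurons, against 299.8, 381 and 158 CPM in gonads, which overlap. lys-4, a lysozyme gene, had 37.2, 35.2, 56.4 and 37.9 CPM in neurons, against 91.3, 112.04 and 23.1 CPM in gonads (log2 difference -0.86, SE 0.44, adjusted p = 0.0982), and the cathepsin genes cpr-1 and cpl-1 fell, at -1.82 and -1.29. Markers that define the intestine had low levels: elt-2, the intestinal GATA factor, stayed at 0.803 CPM or lower in neurons and 0.379 CPM or lower in gonads, and ges-1, a gut esterase, at 0.980 CPM or lower in neurons and 1.41 CPM or lower in gonads. act-5, the actin of the gut brush border, which shares much of its sequence with other actins, rose (log2 difference 2.61, SE 0.52, adjusted p = 0.000708). Of 10 pharyngeal genes 1 rose (10%, against 39% of all genes) and 2 fell (20%, against 34.2%). myo-1 and myo-2, pharyngeal myosins, were at 0.536 to 9.45 CPM in neurons and 4.93 to 15.5 CPM in gonads, and overlapped. Neurons replicate 2 held the highest neuron values of both, 9.45 and 8.08 CPM. Without that library myo-1 passed as lower, at -2.49. myo-2 was called lower, but not without gonads replicate 1 or 3 or neurons replicate 1, 3 or 4 (-1.80 to -1.35). The coelomocyte markers unc-122 and cup-4 stayed at 0.392 CPM or lower in neurons and 1.14 CPM or lower in gonads.

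Cuticle and skin transcripts were found in both preparations. The 176 collagen genes of the cuticle with counts summed to 16087, 13615, 19832 and 12986 CPM in neurons, against 6533, 13174 and 5814 CPM in gonads. Of the 87 tested, 24 rose (27.6%, against 39% of all genes), 11 fell (12.6%, against 34.2%) and 52 did not pass. Their median, 0.72, turned to -0.38 under library totals, and 14 rose without gonads replicate 1 and 14 without neurons replicate 1. col-140 had 2101, 2061, 2931 and 1898 CPM in neurons, against 1012, 1993 and 795 CPM in gonads (log2 difference 0.83, SE 0.40, adjusted p = 0.0781). Gonads replicate 2 was as high as the neuron libraries for this gene. Among hypodermal genes 5 of 16 rose and 5 fell, each 31.2%, against 39% and 34.2% of all genes. Their sum was 214, 245, 244 and 191 CPM in neurons, against 236, 217 and 214 CPM in gonads. elt-1, an epidermal GATA factor also known in some neurons, differed by 3.73, and lin-26 and nhr-23 by -2.84 and -4.16. Glial genes rose in 6 of 11 cases (54.5%, against 39% of all genes), 5 did not pass and none fell. hlh-17 and mls-2, transcription factors of head glia, had 27.7, 16.2, 49.7 and 95.6 CPM in neurons, against 0.0811, 0 and 0.0948 CPM in gonads (log2 difference 9.24, SE 0.88, adjusted p = 1.57e-06), and 62.5, 42.6, 64.4 and 58.8 CPM in neurons, against 0.345, 0 and 0.190 CPM in gonads (log2 difference 7.87, SE 0.56, adjusted p = 1.44e-07), whereas fig-1, a gene of the amphid sheath glia, was at 5.62 CPM or lower in every library. The defining glial markers ptr-10 and kcc-3 overlapped between tissues, with ptr-10 at 0 CPM in neurons replicate 2 and kcc-3 at 1.51 CPM or lower in neurons. Of 9 excretory cell genes 6 rose (66.7%, against 39% of all genes) and none fell. Among those that rose were exc-7, an RNA-binding protein also used in neurons, at 7.65, and exc-5 at 7.23. The defining marker exc-4 had 0.784, 0.137, 0.268 and 1.97 CPM in neurons, against 2.21, 1.91 and 1.61 CPM in gonads.

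**Figure D4:**
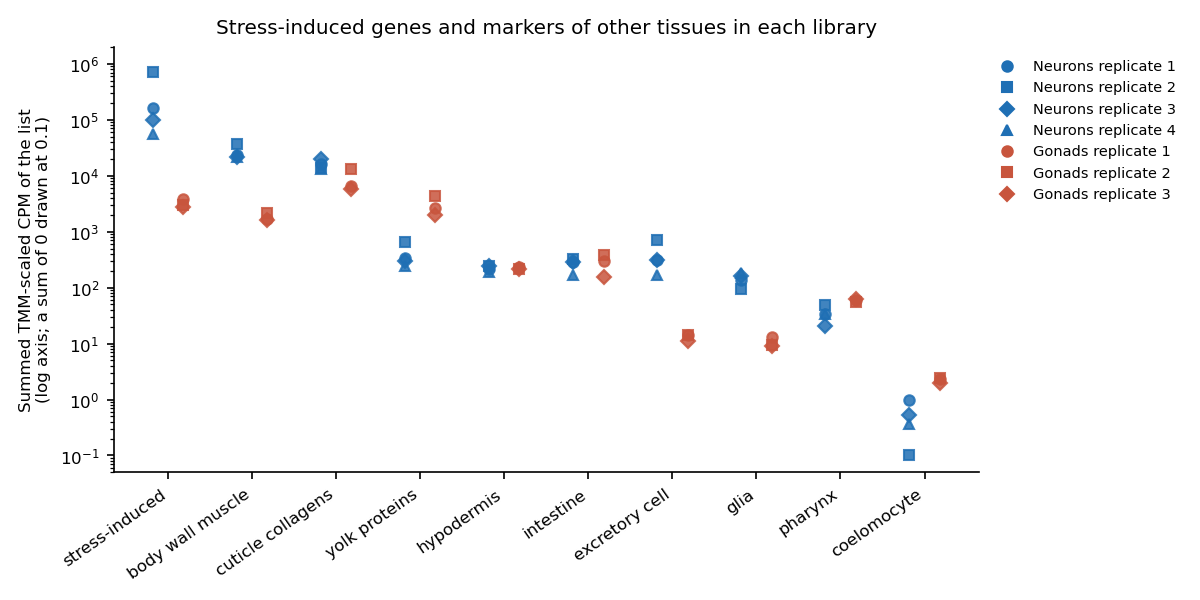
Summed TMM-scaled CPM of each list in each library, on a log axis, with 4 neuron libraries in blue at the left and 3 gonad libraries in red at the right of each list; a sum of 0 is drawn at 0.1. Stress-induced, muscle, excretory cell and glial lists are higher in every neuron library, yolk proteins, pharynx and coelomocyte lists in every gonad library, and the other lists overlap or lie close.

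The somatic gonad did not follow its tissue as a whole. Of 18 tested genes of the sheath, spermatheca and distal tip, 8 rose and 8 fell in neurons, with a median of 0.20 that turned to -1.0 under library totals. Each share was 44.4%, against 39% higher and 34.2% lower over all genes. lim-7, the marker of sheath cells, had 118.7, 259, 103 and 49.4 CPM in neurons, against 2.33, 2.32 and 1.80 CPM in gonads (log2 difference 5.93, SE 0.60, adjusted p = 2.64e-06), and ceh-18, a homeodomain factor of the sheath, had 61.4, 64.1, 57.7 and 34.2 CPM in neurons, against 0.851, 1.01 and 0.853 CPM in gonads (log2 difference 5.91, SE 0.40, adjusted p = 9.95e-08). plc-1, the phospholipase that works in the spermatheca, differed by 6.64, with neurons replicate 2 far above the rest, and nhr-67, a factor of the anchor cell also known in neurons, by 6.48. Lower in neurons were inx-9, a sheath innexin, with 3.63, 5.62, 3.08 and 4.80 CPM in neurons, against 30.04, 19.7 and 22.6 CPM in gonads (log2 difference -2.50, SE 0.36, adjusted p = 5.42e-05), and hnd-1, a factor of gonadal mesoderm, with 0, 0, 0 and 0.123 CPM in neurons, against 5.27, 3.72 and 6.35 CPM in gonads. fkh-6, which acts in early gonad development, had 0.392, 0.137, 0 and 0 CPM in neurons, against 3.30, 4.03 and 3.60 CPM in gonads (log2 difference -4.58).

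Stress-induced genes were far higher in neurons and unlike among neuron libraries. Of 25 tested 18 rose and 1 fell, with a median of 4.48. The list summed to 160259, 706744, 100214 and 56875 CPM in neurons, against 3790.4, 3055 and 2739 CPM in gonads, which was 13.4, 32.7, 7.67 and 4.90% of all gene counts in neurons, against 0.509, 0.494 and 0.488% in gonads. F44E5.4 and F44E5.5, near-identical inducible Hsp70 genes whose reads may be split between them, took 7.06, 20.2, 3.53 and 0.533% of counts in neurons together, against 0.00287, 0.000538 and 0.000658% in gonads. F44E5.4 had 43120.3, 222471, 23604 and 3136 CPM in neurons, against 10.7, 1.31 and 2.27 CPM in gonads (log2 difference 13.86, SE 1.88, adjusted p = 3.35e-05). hsp-70, which lies within the span of uggt-2 in WBcel235 and had nearly the same values, differed by 13.62 (SE 1.94); the count of uggt-2 is uncertain for that reason. The small heat shock genes hsp-16.2 and hsp-16.41 had 1944, 8385, 978 and 1245 CPM in neurons, against 0.304, 0 and 0.190 CPM in gonads (log2 difference 13.81, SE 1.28, adjusted p = 1.27e-06), and 7994, 34082, 5512 and 4577 CPM in neurons, against 1.68, 0.101 and 0.190 CPM in gonads (log2 difference 13.97, SE 1.43, adjusted p = 2.89e-06). hsp-16.11 and hsp-16.49, each with a near-identical copy, differed by 12.33 and 11.94. Every neuron library stood above every gonad library for these genes, with replicate 2 the highest and, for F44E5.4 and hsp-70, replicate 4 the lowest. zip-2 and atf-5, transcription factor genes of infection and stress responses, had 896, 695, 1204 and 1005 CPM in neurons, against 7.56, 8.76 and 5.97 CPM in gonads (log2 difference 7.0, SE 0.44, adjusted p = 6.44e-08), and 230.0, 271, 267 and 210.0 CPM in neurons, against 10.7, 13.3 and 8.81 CPM in gonads (log2 difference 4.48, SE 0.35, adjusted p = 2.61e-07). The neuron libraries lay closer together for both than for the heat shock genes. hsf-1, the gene of the heat shock factor itself, was the 1 that fell, with 35.2, 32.7, 32.3 and 20.5 CPM in neurons, against 79.8, 53.0 and 55.5 CPM in gonads (log2 difference -1.06, SE 0.30, adjusted p = 0.00634). The list took 1.82 to 8.29% of counts in the 8 other neuron libraries and 0.343 to 0.537% in the 12 other gonad libraries. What part the handling of the neurons had in these values was not tested, and it cannot be told apart from tissue.

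These transcripts weigh on every share of counts in neurons. With the stress-induced genes and uggt-2 left out of counts and totals, an alternative chosen after seeing the data, 5008 genes rose and 4312 fell of 12758 tested, close to the 4955 and 4354 with them. Among the genes for which neurons replicate 2 stood far above the other neuron libraries were, beside the stress genes, ocr-3 and glh-1, whose values stand above, plc-1, with 149, 461, 149 and 137 CPM in neurons, and met-1, with 109.6, 544, 115 and 68.5 CPM in neurons. The P granule list summed to 378, 774, 296 and 257 CPM in neurons, against 7306, 5920.0 and 5723 CPM in gonads.

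The neuron libraries also differed among themselves in genes of neuron classes. Replicate 4 was the lowest of the 4 for mec-12 (19866, 35728, 19106 and 4131 CPM), mec-7 (7956, 13177, 6524 and 1530.5 CPM), mec-3 (144, 209, 176 and 66.9 CPM) and unc-25 (15852, 20392, 14514 and 3341 CPM), the genes of touch and GABA neurons. It was the highest for flp-26 (96.5, 63.3, 133 and 275 CPM), ins-17 (371, 383, 502 and 852 CPM) and sbt-1 (17797, 21467, 23864 and 29583 CPM). The nlp and insulin-like lists also had their highest sums there, 103328 and 6313 CPM. Unlike sbt-1, its list of dense core vesicle and peptide processing genes had its lowest sum in replicate 4 (80787, 100830, 106001 and 73167 CPM). The pan-neuronal and synaptic vesicle list was lowest there too (17054, 32573, 16931 and 12925 CPM). The flp genes together summed to 32803, 27988, 43984 and 72689 CPM in neurons, against 34.02, 26.3 and 21.5 CPM in gonads, and the touch receptor genes to 38259, 65174, 35861 and 12955 CPM in neurons, against 140.5, 117 and 111 CPM in gonads. Replicate 4 thus held more flp peptide transcripts and fewer touch receptor transcripts than replicates 1, 2 and 3, with every neuron library still above every gonad library. These are differences among 4 libraries of 1 group and carry no test.

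**Figure D5:**
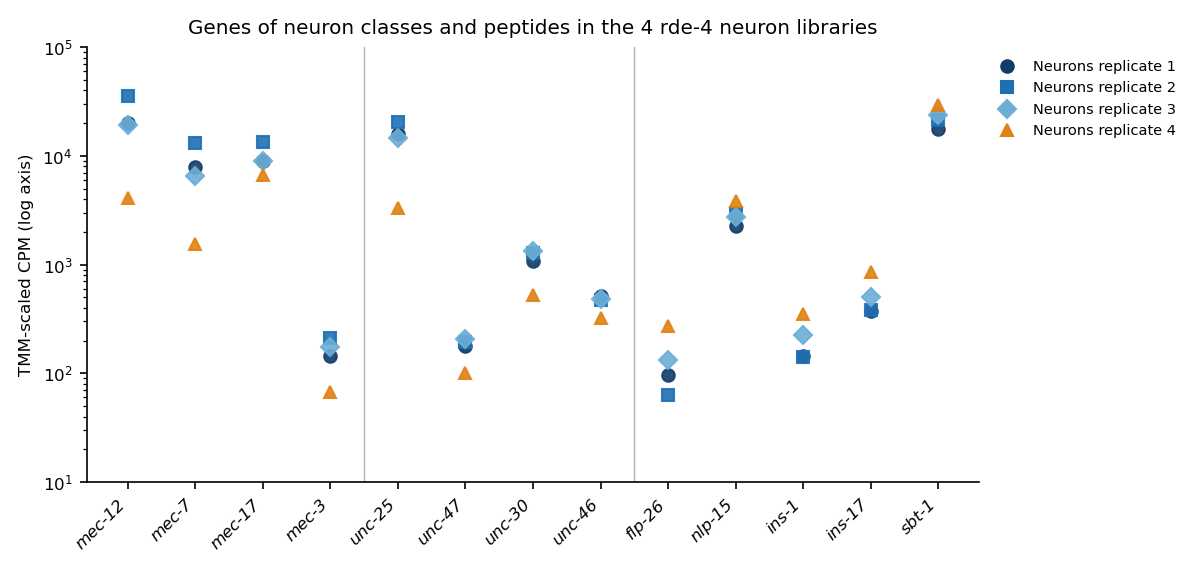
Level of genes of touch receptor neurons (left), GABA neurons (middle) and peptide genes with the chaperone gene sbt-1 (right) in the 4 rde-4 neuron libraries, in TMM-scaled CPM on a log axis, 1 symbol per replicate. Replicate 4 (orange) is lowest for mec-12, mec-7, mec-3 and unc-25 and highest for flp-26, ins-17 and sbt-1.

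The same contrast in pigSi3 animals used libraries of its own. Of 12196 genes tested there, 5120 (42%) rose and 4674 (38.3%) fell in neurons. Of the genes higher in rde-4 neurons 4402 were also called higher in pigSi3 neurons, 88.8% of those called in rde-4 and 86% of those called in pigSi3; 3751 were called lower in both, 86.2% and 80.3%. Only 1 gene called higher in rde-4 was called lower in pigSi3, and 4 called lower in rde-4 were called higher. The neuronal lists combined had a median of 7.72 there and the gonad lists -4.15. X-linked genes rose in 69.5% and fell in 12% of cases, with a median of 3.24. Muscle genes had 14 of 28 higher in pigSi3, with unc-54 at 6.71, and lim-7 and ceh-18 differed by 6.47 and 6.44. Among sperm genes the major sperm protein list had 14 tested members in pigSi3, all lower. Of 22 other sperm genes tested there 7 rose and 9 fell, with a median of -0.17. In rde-4 the median was -4.46, but over 46 tested members, of which 7 rose and 36 fell. These medians are thus over different sets of genes and do not show a change in the tissue difference.

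Few genes differed in the tissue contrast itself. Testing the rde-4 contrast minus the pigSi3 contrast over the 14 libraries, 13 of 14002 genes passed (0.0928%). By sign, the log2 value was higher in rde-4 for 3 (0.0214%) and lower for 10 (0.0714%), which is not a split by size. The number rests on neurons replicate 2: without that library 428 genes passed, and with any other 1 library of the 14 left out 6 to 13 did. Levels set beside those of pigSi3, here and in the next paragraph, are in the scaling of all 27 mRNA libraries. The foremost gene was rde-4, with a difference between the contrasts of -6.74 (SE 0.44, adjusted p = 2.83e-07). It had 5.36, 3.02, 2.96 and 5.90 CPM in rde-4 neurons and 27.9, 18.3 and 24.1 CPM in rde-4 gonads. In pigSi3 it had 416, 413, 385 and 480.5 CPM in neurons and 23.0, 28.2 and 22.5 CPM in gonads. Its endogenous locus and the transgene share sequence, so the pigSi3 neuron counts hold both. saeg-2, a partner of the nuclear regulator SAEG-1, differed between contrasts by -3.88 (SE 0.49, adjusted p = 0.00243). It had 33.4, 14.2, 27.5 and 42.7 CPM in rde-4 neurons and 38.9, 39.5 and 44.9 CPM in rde-4 gonads, and 31.2, 24.2, 44.0 and 25.6 CPM in pigSi3 neurons and 3.71, 3.51 and 2.66 CPM in pigSi3 gonads. The pigSi3 gonads were the group that stood apart. saeg-1 differed by -2.27 (SE 0.40, adjusted p = 0.0335), with 286.6, 351, 256 and 292 CPM in rde-4 neurons and 19.4, 12.5 and 25.2 CPM in rde-4 gonads, and 4.73, 6.94 and 5.82 CPM in pigSi3 gonads. ccb-1, a calcium channel subunit gene, K10G9.2 and lin-59, a SET-domain gene, differed by -3.40 (SE 0.45, adjusted p = 0.00243), -3.16 (SE 0.42, adjusted p = 0.00243) and -3.59 (SE 0.48, adjusted p = 0.00243). unc-9 also passed, at -2.73 (SE 0.47, adjusted p = 0.0332).

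The genes with a larger, or less negative, value in rde-4 were C32D5.8 and a pair of histone genes. C32D5.8 had 26.2, 23.5, 30.1 and 30.1 CPM in rde-4 neurons and 1.90, 1.44 and 1.75 CPM in rde-4 gonads, and 86.5, 75.4, 90.1 and 63.01 CPM in pigSi3 neurons and 37.3, 34.6 and 37.8 CPM in pigSi3 gonads, a difference between contrasts of 2.64 (SE 0.36, adjusted p = 0.00291). rde-4 gonads were far below pigSi3 gonads for this gene. his-55 and his-60 differed by 3.92 (SE 0.70, adjusted p = 0.0376) and 3.25 (SE 0.58, adjusted p = 0.0376), with his-55 at 10.5, 14.5 and 6.86 CPM in rde-4 gonads, against 81.1, 43.6 and 49.1 CPM in pigSi3 gonads. Of the study's own genes of interest in the rde-4 contrast, saeg-1 had 220.1, 319, 208 and 231 CPM in neurons, against 19.3, 9.66 and 19.1 CPM in gonads (log2 difference 3.93, SE 0.39, adjusted p = 2.06e-06), saeg-2 had 25.7, 12.9, 22.4 and 33.8 CPM in neurons, against 38.5, 30.5 and 34.1 CPM in gonads (log2 difference -0.54, SE 0.34, adjusted p = 0.166), and egl-4, the cGMP-dependent kinase that acts with them, had 205, 408, 191 and 144 CPM in neurons, against 155, 107.7 and 109 CPM in gonads (log2 difference 0.94, SE 0.39, adjusted p = 0.0461). The egl-4 levels overlapped, its call lapsed without any 1 gonad library (0.80 to 1.09), and under library totals it was at -0.29.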

How the data were processed

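The authors deposited whole-number read counts per gene, 1 table per library, and the 7 rde-4 mRNA tables were used as deposited, with the 7 pigSi3 tables for the second contrast and all 27 mRNA tables for ranges. Per the labels, RNA was extracted with TRIZOL and libraries were made with Nextera XT. Per the submitters' processing notes, cutadapt, FastQC, HTSeq and DESeq2 were used with build ce10, without versions; the sources used here name no aligner, annotation or strand setting. The lines for reads not assigned to a gene (47.6 to 52.1% of reads counted to no gene) stayed out of totals and tests. Without strand, reads of overlapping genes cannot be told apart. The 12 mitochondrially encoded genes were listed at 0 in all 7 libraries. Of 30199 genes in the tables, 29715 were matched to the RefSeq table of WBcel235 for current names and chromosomes. No sequence is printed, since none was at hand for ce10.

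The test was edgeR's robust quasi-likelihood F test (version 4.0.16, R 4.3.3) on the counts (TMM scaling, filterByExpr, Benjamini-Hochberg adjustment over all genes tested, threshold 0.05), with a mean for each tissue and no other term. It was also run on simulated counts in which few genes differed. Most genes differ in these data, so that run cannot show how the scaling behaves here. DESeq2 1.42.0, other scalings and filters, thinning to equal depth, a replicate block and leaving out each library were alternatives. Replicate numbers are shared by the tissues, and the sources used here do not say whether same-numbered libraries were made together. Their deviations correlated with 0.001, -0.0736 and -0.0271, values that cannot decide this for tissues so unlike. The main test used no pairing.

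Libraries were grouped by their labels. The comparison, its members and the gene lists were chosen with earlier results of these data known. Genes are named where they are among the 15 furthest apart in each direction (adjusted p under 0.05, no overlap, mean of at least 50 CPM in the higher tissue), among up to 4 members of a list with the smallest adjusted p or up to 3 called the other way, among the highest of a list of another tissue, defining markers, among up to 5 per direction in the difference of contrasts, or fixed by name; all others were picked after their values were seen. No p-value was computed for a list. Within each of the 4 groups of rde-4 and pigSi3 libraries, every pair differed beyond sampling noise.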

Additional observations from a re-analysis of the deposited data

Results flagged for a closer look

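In groups of 4 libraries, a library was singled out where its gap to the nearest other exceeded Dixon's 95% critical value. This held for 20 of 191 genes named here with a mean of at least 1 CPM in neurons and for 5 of 46 list sums. The rule flags about 1 in 20 groups of independent, normally distributed values. These counts cannot be set against that rate, since some genes were picked after their values were seen and some are close copies or overlap. Neurons replicate 2 was the library in most cases. It was the highest for the stress genes hsp-70 (57309 CPM), uggt-2 (57494 CPM), hsp-16.2 (8385 CPM), hsp-16.41 (34082 CPM), hsp-16.11 (21548 CPM) and hsp-16.49 (63712 CPM), and for the stress-induced list as a whole (706744 CPM). The same library was also highest for ocr-3 (1139 CPM), met-1 (544 CPM), plc-1 (461 CPM), vit-3 (129 CPM), vit-4 (146 CPM) and vit-5 (173 CPM). So it was for the sums of the body wall muscle (36854 CPM), small RNA pathway (1864 CPM), chromatin silencing (1171 CPM) and study gene (750.1 CPM) lists. Its TMM factor, 0.464, was the lowest of the 7, which raises its CPM. As a share of all gene counts, only the chromatin silencing list was still highest there, at 0.0542%. The muscle, small RNA pathway and study gene lists took 1.71, 0.0863 and 0.0347% there, against 1.93, 0.0982 and 0.0392% in replicate 1. Neurons replicate 2 was lowest for ins-5 (0 CPM), lin-26 (5.34 CPM) and ife-3 (11.2 CPM). Replicate 4 was lowest for glc-3 (50.6 CPM) and highest for eri-6 (312 CPM), replicate 1 was highest for mcm-7 (13.2 CPM) and mrps-22 (13.1 CPM), and replicate 3 was lowest for gld-1 (3.21 CPM).

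The tissue difference was unlike in rde-4 and pigSi3 animals, by a test of the difference itself over 14 libraries, for 10 genes named here. In log2, rde-4 minus pigSi3, it was -6.74 for rde-4, -3.88 for saeg-2, -3.59 for lin-59, -3.40 for ccb-1, -3.16 for K10G9.2, -2.73 for unc-9 and -2.27 for saeg-1, and 3.92 for his-55, 3.25 for his-60 and 2.64 for C32D5.8.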

How the results depend on the processing

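Over the 17 alternatives to the rde-4 contrast, 180 of 210 named genes with a test kept their direction and their side of the threshold wherever they were tested. The count of all genes called, 9309, ranged from 7323 with a stricter filter to 11816 with no filter, and was 9675 by DESeq2 and 9018 with the replicate block. The difference of contrasts was the least settled: 13 genes passed, against 115 under library totals, 8 with the replicate block, and 6 to 428 on leaving out 1 library. Library totals also cut the members of other-tissue lists that rose to 33 of 65. The other counts that answer a comparison stayed within 1.5 times. Among counts of single lists, 158 moved by over 1.5 times and 1440 did not, with library totals moving the most (27). Directions that turned did so mostly under library totals, at -0.38 for the median of cuticle collagens, -1.0 for the somatic gonad, -0.30 for dosage compensation, -0.23 for mbk-2, -0.45 for myo-3, -0.0886 for lev-11, -0.28 for col-140, -0.29 for egl-4 and -0.24 for lin-59, a scaling that moves all genes by a median of -1.06. The hypodermis median turned to 0.82 with the stricter filter and 0.31 when thinned, and ran from -0.42 to 0.15 on leaving out 1 library (0.15 without neurons replicate 3, 0.05 without neurons replicate 4). The F-box median was 1.95 with the stricter filter, which tests fewer genes. Depth limits low genes: in the shallowest gonad library 3 counts were worth 0.506 CPM.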
